A study of Mus musculus with 6 samples.

Results

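The genes described here encode the coat of caveolae and the EHD ATPases, a family grouped around Ehd2. There are 10 of them among the 21006 gene symbols of the deposited table: the ATPase genes Ehd1, Ehd2, Ehd3 and Ehd4, the caveolin genes Cav1 and Cav2, the cavin genes Cavin1, Cavin2 and Cavin3, and Pacsin2. Ehd2 was chosen by its measured level in these libraries, which was lower in the mutant cells, and the others were added by family. The difference in Ehd2 is therefore given as a description without a test. All 10 passed the filter on low counts.

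RNA was measured in 6 libraries of cells from the branchial arches of mouse embryos at E11.5, the swellings that give rise to the jaws and throat. The 3 DKO libraries came from embryos with the alleles Ehmt1f/f and Ehmt2f/f, and the 3 control libraries from embryos that were Ehmt1+/+ and Ehmt2+/+. Ehmt1 and Ehmt2 encode the paired histone H3K9 methyltransferases GLP and G9a. Both groups also carried Rosa26 TdTomato/+ and Wnt1-cre, so the controls had the recombinase but no floxed allele. Wnt1-cre acts in the neural crest, the cells were sorted on TdTomato, and the number of embryos behind a library is not given in the sources used here. The labels call the libraries biological replicates and do not say that each came from a separate embryo, so p-values measure the spread between these libraries.

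Caveolae are flask-shaped pits of the plasma membrane that buffer membrane tension and are abundant in endothelium, muscle and fat. Caveolins are inserted in the inner leaflet of the membrane and cavins form a coat over them. EHD2 is an ATPase that oligomerises at the neck of the pit and holds it at the surface, whereas EHD1, EHD3 and EHD4 act mainly in the recycling of endocytosed membrane. PACSIN2 is an F-BAR protein that bends membrane at the neck.

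Total counts lay between 23414466 and 44538260 per library. Levels are given as CPM, counts relative to the library total after TMM scaling. Ehmt2 stood between 119 and 140.4 CPM in DKO and between 347 and 359.7 CPM in the controls. Ehmt1 stood between 133 and 168 CPM in DKO and between 250.03 and 268 CPM in the controls. Counts over a whole gene include transcripts from which a floxed exon is missing. The 17 markers of neural crest mesenchyme summed to between 2239 and 2700.1 CPM in DKO and between 2582 and 3024 CPM in the controls, with Prrx1 and Pdgfra the most abundant, and 0 of the 17 were without counts. A positive log2 fold change of DKO over control was found for 5 of these 17 markers, with a median of -0.18. All DKO values lay below all control values for 3 and above them for 0, against 12.7% and 14.5% of all tested genes. None of the 17 reached an adjusted p below 0.05 in edgeR's test, as did 3.01% of all tested genes. In bulk RNA, fewer cells of a type and less RNA per cell cannot be told apart.

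The start regions of Ehd2 and Cavin2 are printed because these members had the lowest and the highest log2 fold change of the family. Each window holds 250 bases before and 50 bases after the transcription start, from RefSeq on GRCm38.p6 (mm10), written 5′ to 3′ on the gene's strand with every CG dinucleotide in capitals. The Ehd2 window is chr7:15967486-15967785 on the minus strand and the Cavin2 window is chr1:51288876-51289175 on the plus strand.
Ehd2: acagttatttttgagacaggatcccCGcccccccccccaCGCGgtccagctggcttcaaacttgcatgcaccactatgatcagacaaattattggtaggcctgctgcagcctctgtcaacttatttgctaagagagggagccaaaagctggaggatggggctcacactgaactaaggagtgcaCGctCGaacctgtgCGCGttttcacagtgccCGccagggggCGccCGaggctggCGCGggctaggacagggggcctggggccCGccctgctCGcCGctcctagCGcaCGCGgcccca
Cavin2: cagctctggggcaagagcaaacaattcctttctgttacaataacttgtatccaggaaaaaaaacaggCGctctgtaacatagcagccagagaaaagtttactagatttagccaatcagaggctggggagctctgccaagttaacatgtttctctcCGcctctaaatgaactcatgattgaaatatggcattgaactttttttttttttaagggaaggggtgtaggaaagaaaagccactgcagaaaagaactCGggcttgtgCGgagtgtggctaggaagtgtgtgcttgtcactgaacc

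The Ehd2 window held 18 CG dinucleotides with 62% G and C, and the Cavin2 window 4 with 43.3%. The median over 32851 windows of the same length was 7, and at least 1 CG was present in 94.6% of them. The letters GGGCGG, searched on both strands and overlapping CG, occurred 2 times in the Ehd2 window and 0 times in the Cavin2 window, and were present in 35.7% of all windows. At most as many CG dinucleotides as in the Ehd2 window were held by 71.9% of all windows, and as in the Cavin2 window by 38.04%. The Ehd4 window held 29 CG dinucleotides, the Ehd3 window 24 and the Cav2 window 16. Members with more than 1 window were Cav1 (13 and 16), Cavin1 (17 and 18) and Pacsin2 (27, 4 and 3). Such a match is a description of the sequence, and methylation of DNA or histones was not measured in these libraries.

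Levels of the family in arch crest were uneven, with Ehd1 and Pacsin2 abundant and the caveolins at low levels. Per kilobase of annotated exon, Ehd1 had 37.8 ± 3.198 CPM per kb in the controls and Pacsin2 20.9 ± 1.02 CPM per kb (SD; n = 3 per group). Ehd4 (4.57 ± 0.64), Ehd3 (3.83 ± 0.203) and Ehd2 (3.53 ± 0.175 CPM per kb) followed. The 3 control values of Ehd4 and Ehd3 overlapped, and those of Ehd3 and Ehd2 did not. Cavin2 had 2.64 ± 0.231 and Cavin3 2.36 ± 0.28 CPM per kb, and their control values overlapped. Cavin1 had 0.777 ± 0.348, Cav1 0.383 ± 0.153 and Cav2 0.278 ± 0.0172 CPM per kb, with overlapping values in Cav1 and Cav2. Among 14220 tested genes with a length, Ehd1 stood above 89.8% of genes by this measure, Ehd2 above 36.6% and Cav2 above 10.03%.

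**Figure D1:**
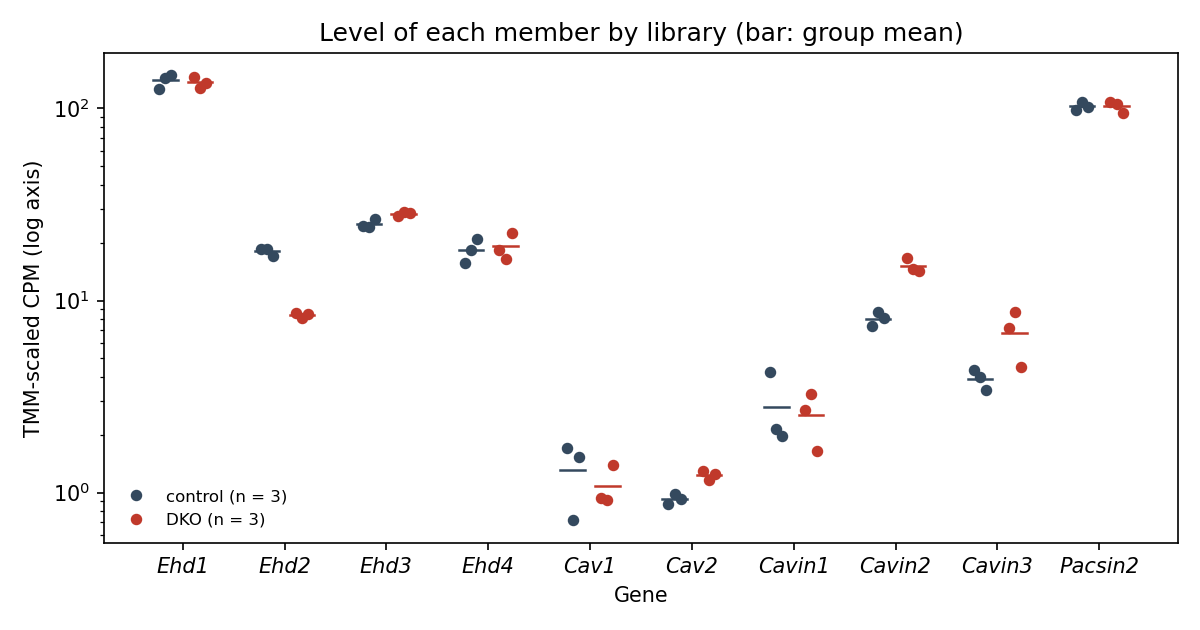
Level of each of the 10 genes in TMM-scaled CPM on a log axis, with 1 point per library, control at the left and DKO at the right of each pair, and a bar at the mean of the 3 libraries. The 3 Ehd2 points of DKO lie below all control points, the 3 Cavin2 points lie above them, and Ehd1 and Pacsin2 overlap.

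Ehd2 (chromosome 7, 15946958 to 15967567, minus strand) was lower in all DKO libraries than in any control library. It measured 8.57, 8.13 and 8.52 CPM in DKO replicates 1, 2 and 3 against 18.5, 18.6 and 17.02 CPM in control replicates 1 to 3. The groups did not overlap, as in 12.7% of all tested genes in this direction, and the spread within each was small beside the gap. Ehd2 was picked for this difference, so its separation and its spread are description and not support. The means were 8.41 ± 0.238 and 18.1 ± 0.894 CPM (SD; n = 3 per group), a log2 fold change of -1.10 (SE 0.11), or 2.15-fold lower. The counts behind these levels were 1055 over the 3 DKO and 1741 over the 3 control libraries. With each library left out in turn the log2 fold change stayed between -1.14 and -1.07.

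The other EHD genes did not pass the test, although Ehd3 separated the groups. Over all 14555 tested genes, 3.01% were called at an adjusted p below 0.05, 2.19% higher and 0.818% lower (edgeR's quasi-likelihood test, Benjamini-Hochberg over all tested genes), and 1 of the 9 members other than Ehd2 was called. Since the list was drawn up around Ehd2 with these results known, the p-values of the 9 say where each stands in the fit of the whole table and do not stand as independent support.

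Ehd1, the EHD gene with the highest level, encodes a regulator of recycling from endosomes to the plasma membrane. It measured 146, 128 and 136 CPM in DKO replicates 1, 2 and 3 against 127, 145 and 149 CPM in control replicates 1 to 3. These ranges overlap, and the log2 fold change was -0.04 (95% interval -0.23 to 0.16; edgeR adjusted p = 0.853). The interval leaves out a change as large as that of Ehd2. Scaling by library size only turned the sign, to 0.04.

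Ehd3, whose protein also acts at recycling endosomes, measured 27.5, 29.1 and 28.5 CPM in DKO against 24.5, 24.2 and 26.6 CPM in control replicates 1 to 3. The DKO values were all above the control values, a separation seen in either direction for 27.2% of all tested genes. Its log2 fold change of 0.18 (95% interval -0.02 to 0.37) was not called (edgeR adjusted p = 0.276). Ehd4 measured 18.4, 16.5 and 22.5 CPM against 15.7, 18.3 and 20.9 CPM, overlapping, with a log2 fold change of 0.07 (95% interval -0.28 to 0.41; edgeR adjusted p = 0.843) that became negative without DKO replicate 3 or control replicate 1.

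The make-up of the EHD family differed mainly in its Ehd2 part. Per kilobase, Ehd2 made up 3.36%, 3.57% and 3.44% of the summed EHD level in DKO replicates 1, 2 and 3 against 7.96%, 7.14% and 6.30% in control replicates 1 to 3. Ehd1 made up 77.4% ± 1.53 in DKO and 76.0% ± 0.745 in the controls (SD; n = 3 per group). Ehd3 made up 8.41%, 9.95% and 8.97% in DKO replicates 1, 2 and 3 against 8.22%, 7.24% and 7.69% in control replicates 1 to 3. The Ehd3 shares did not overlap between groups, and those of Ehd1 and of Ehd4 did. The sum of the 3 EHD genes other than Ehd2 was 45.97 ± 2.696 CPM per kb in DKO and 46.2 ± 3.93 CPM per kb in the controls. This sum overlapped between groups. These shares rest on the same contrast that picked Ehd2 and carry no test.

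The caveolin genes were scarce in both groups and were not called. Cav1, the gene of the main structural protein of caveolae outside striated muscle, measured 0.943, 0.914 and 1.39 CPM in DKO against 1.70, 0.718 and 1.54 CPM in control replicates 1 to 3. It rested on 16 to 76 counts per library, the groups overlapped, and the log2 fold change was -0.31 (95% interval -1.12 to 0.50; edgeR adjusted p = 0.658). The interval spans 0 and also holds the value of Ehd2. Cav2, whose protein assembles with caveolin-1, measured 1.29, 1.17 and 1.25 CPM in DKO against 0.872, 0.987 and 0.923 CPM in control replicates 1 to 3. The DKO values were all higher, but the log2 fold change of 0.42 (95% interval -0.11 to 0.95) was not called (edgeR adjusted p = 0.336). Cav1 and Cav2 start 0.0252 Mb apart on chromosome 6.

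Among the cavins, Cavin2 rose and Cavin1 did not pass the test. Cavin2 (chromosome 1, 51289126 to 51302960) encodes a phosphatidylserine-binding cavin that shapes and elongates caveolae in some tissues. It measured 16.7, 14.6 and 14.2 CPM in DKO replicates 1, 2 and 3 against 7.34, 8.75 and 8.10 CPM in control replicates 1 to 3. Every DKO library was above every control library. The means were 15.2 ± 1.33 and 8.06 ± 0.707 CPM (SD; n = 3 per group), a log2 fold change of 0.92 (SE 0.13), or 1.89-fold higher (edgeR adjusted p = 0.0099). Without DKO replicate 1, the library with the highest level, the call ended (log2 fold change 0.84, edgeR adjusted p = 0.0605), and it held without each of the other 5 libraries. Against a change of 1.5-fold it was not called (adjusted p = 0.216).

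Cavin3, whose protein links caveolae to protein kinase C delta, measured 7.17, 8.68 and 4.49 CPM in DKO against 4.34, 3.99 and 3.42 CPM in control replicates 1 to 3. The groups did not overlap, though DKO replicate 3 stood just above the highest control. The log2 fold change of 0.79 (95% interval 0.21 to 1.37) was not called (edgeR adjusted p = 0.139), and it was called without DKO replicate 3 (1.01, adjusted p = 0.0233). Of the exon bases of Cavin3, 374 lie over the transcript Gm45667 on the opposite strand, and the strand setting of the counting is not given in the sources used here, and reads of both transcripts could be mixed in this count. Cavin1, the cavin that caveolae require for their formation, measured 2.695, 3.27 and 1.65 CPM against 4.23, 2.15 and 1.98 CPM. The groups overlapped, and the log2 fold change of -0.15 (95% interval -0.99 to 0.68; edgeR adjusted p = 0.851) turned positive without control replicate 1 (0.30) or DKO replicate 3 (0.07).

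**Figure D2:**
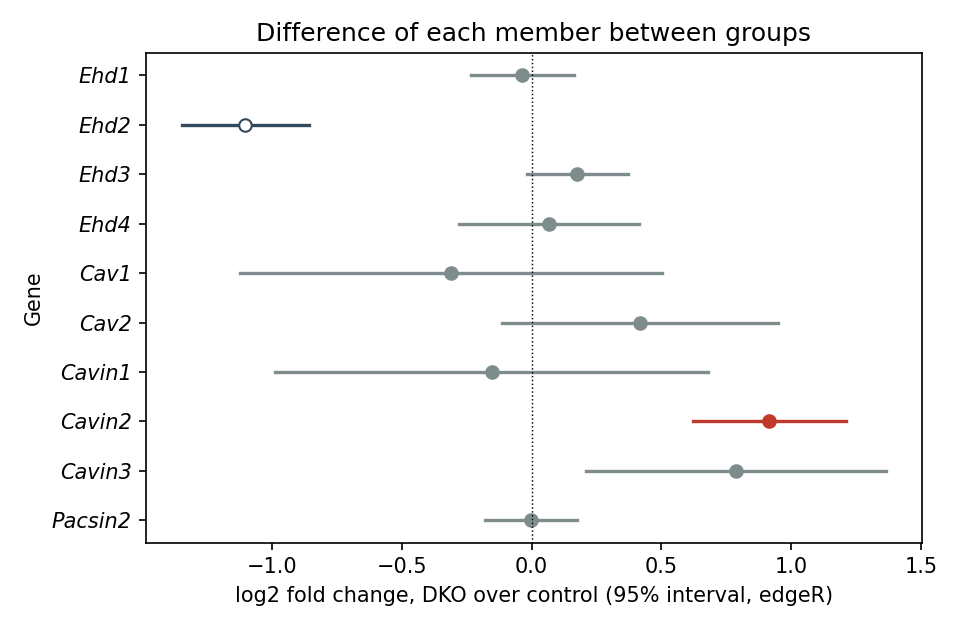
Log2 fold change of each gene, DKO over control, with its 95% interval from edgeR. Cavin2 (red) is the called gene among the 9 tested by family, Ehd2 (open point) was picked for its value, and the grey genes were not called, with the widest intervals for Cav1 and Cavin1.

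Cavin2 and Cavin3 made up most of the summed level of Cavin1, Cavin2 and Cavin3 in both groups. Cavin4, the muscle cavin gene, was left out of this summed cavin level. Per kilobase, Cavin2 made up 51.8% ± 7.83 of this sum in DKO and 46.0% ± 6.296 in the controls (SD; n = 3 per group). Cavin3 made up 41.1% ± 6.61 and 40.7% ± 1.55. The shares of Cavin2 and of Cavin3 overlapped between groups. Cavin1 made up 7.13%, 8.33% and 5.90% in DKO replicates 1, 2 and 3 against 19.0%, 10.2% and 10.5% in control replicates 1 to 3. Its shares did not overlap, although its CPM values did. The summed cavin level was 10.5, 10.9 and 7.82 CPM per kb in DKO replicates 1, 2 and 3 against 6.19, 5.87 and 5.26 CPM per kb in control replicates 1 to 3. The summed caveolin level overlapped, with 0.685 ± 0.0839 CPM per kb in DKO and 0.661 ± 0.137 CPM per kb in the controls. The ratio of Cavin2 to Ehd2, per kilobase, was 3.27, 3.02 and 2.80 in DKO against 0.664, 0.787 and 0.797 in control replicates 1 to 3. The pair was set by the choice of Ehd2 and by this same contrast, and the ratio carries no test.

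**Figure D3:**
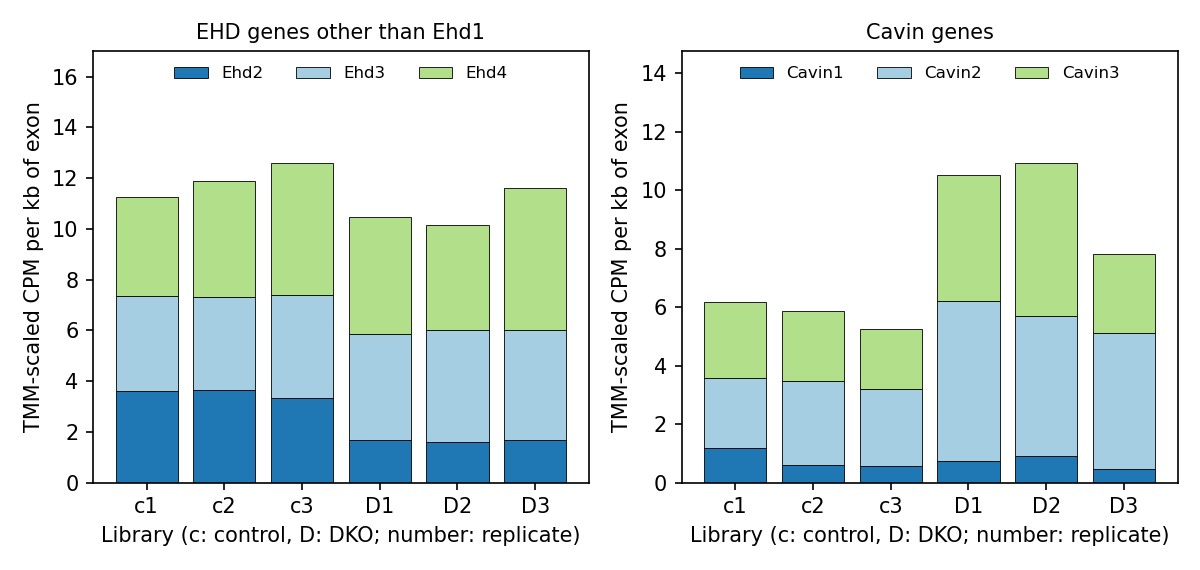
Stacked levels in TMM-scaled CPM per kb of exon, by library, for the EHD genes other than Ehd1 (left) and for Cavin1, Cavin2 and Cavin3 (right). The Ehd2 block is shorter in the 3 DKO libraries, and the Cavin2 block is taller in them.

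Pacsin2, the neck-bending F-BAR gene, did not separate the groups. It measured 108, 105 and 94.3 CPM in DKO against 98.4, 108 and 101 CPM in control replicates 1 to 3. The ranges overlap, and the log2 fold change was -0.001 (95% interval -0.18 to 0.18; edgeR adjusted p = 0.995).

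Over the 9 members other than Ehd2, 4 separated the groups with DKO higher (Ehd3, Cav2, Cavin2 and Cavin3), 5 overlapped and 0 separated with DKO lower, against 14.5% and 12.7% of all tested genes in these directions. Their median log2 fold change was 0.07, and that of all tested genes was -0.01. Sequence copies of these genes were few: 0% to 0.136% of the 50-base stretches of 9 members occurred in transcripts of other genes, and 20.1% for Cavin3, all of them in Gm45667. None of the EHD genes shared such a stretch with another EHD gene.

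No tested gene around Ehd2 was called in the edgeR fit with TMM scaling and all 6 libraries. Of 12 protein-coding genes whose start lies within 250 kb of the start of Ehd2, 7 were tested. By distance between starts, the nearest tested neighbours were Nop53, a ribosome assembly gene, at 21.5 kb and Selenow, a selenoprotein gene, at 45.2 kb. Both lie on the 3′ side of Ehd2. Their log2 fold changes were 0.004 (95% interval -0.17 to 0.18; edgeR adjusted p = 0.983) and 0.03 (-0.28 to 0.33; adjusted p = 0.935). On the other side, Bicra had a log2 fold change of -0.02, Napa 0.02 and Slc8a2 0.26. By annotated span rather than start, Bicra lies closer to Ehd2 than Selenow does. Kptn (0.52; edgeR adjusted p = 0.0686) and Meis3 (0.29; adjusted p = 0.0781) had all DKO values above all control values and were not called. Both were called by DESeq2's Wald test (adjusted p = 0.0082 and 0.019). With edgeR, Kptn was called without DKO replicate 3 (0.60; adjusted p = 0.0325) and Meis3 with library-size scaling only (0.37; adjusted p = 0.0472). Ehd2 and Cavin3 both lie on chromosome 7, 89.5 Mb apart. Ehd3 lies 38.9 Mb from Ehmt2, and Ehd4 lies 95.3 Mb from Ehmt1.

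The genes whose levels over the 6 libraries were most like those of Ehd2 were Ssc5d, Bhmg1, Slc8b1, Zfp458 and Hand1. Symbols made of Gm and digits or ending in Rik were set aside before these 5 were taken. Likeness was the root mean square difference between log2(CPM + 0.5) profiles, each centred on its own mean. It was 0.143 for Ssc5d and 0.151 for Hand1. Genes other than Ehd2 with a mean of at least 1 CPM numbered 13138, counted before those symbols were set aside. Hand1, which encodes a bHLH factor of the distal arches, had 9.19 ± 0.47 CPM in DKO and 17.4 ± 1.81 CPM in the controls. Ssc5d, a gene of a secreted scavenger receptor protein, stood at 5.29 ± 0.832 and 10.9 ± 0.668 CPM (SD; n = 3 per group). These genes were ranked by the same 6 values that set Ehd2 apart, so their lower level in DKO follows from the ranking.

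Genes known to work with caveolae and EHD proteins were mostly not called. Of 14 tested caveola accessory genes, 0 were called by edgeR, with a median log2 fold change of -0.01. An unadjusted p below 0.05 was reached by 2 of them and by 20.9% of all tested genes. The actin crosslinker gene Flna, the most abundant of them, had 1446 ± 101 CPM in DKO and 1591 ± 30.7 CPM in the controls (SD; n = 3 per group; log2 fold change -0.14, edgeR adjusted p = 0.39), and the kinase gene Abl1 had 0.003 (adjusted p = 0.991). Cavin4, the muscle cavin gene, had 3.60 ± 0.843 and 4.41 ± 0.219 CPM (SD; n = 3 per group; log2 fold change -0.29, edgeR adjusted p = 0.476), and Pacsin3 28.7 ± 4.70 and 25.3 ± 2.195 CPM (0.18, adjusted p = 0.467); both are named after their values were seen.

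Of 18 tested EHD partner genes, 0 rose and 1 fell, beside 0.818% of all tested genes that fell, with a median log2 fold change of -0.04. An unadjusted p below 0.05 was reached by 6 of them, and 7 had all DKO values below all control values, as had 12.7% of all tested genes. The gene that fell was Rab10, a small GTPase of exocytic and recycling traffic. It measured 144, 147 and 156 CPM in DKO against 199, 211 and 195 CPM in control replicates 1 to 3, without overlap (log2 fold change -0.43 with SE 0.07; edgeR adjusted p = 0.0156). The call ended without DKO replicate 1 or 2 or control replicate 1 or 2 (adjusted p between 0.0566 and 0.0975). Genes of proteins that bind EHD2 or EHD1 directly, Ehbp1 and Micall1, had log2 fold changes of 0.07 and 0.14 (edgeR adjusted p = 0.716 and 0.398), and are named after their values were seen.

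**Figure D4:**
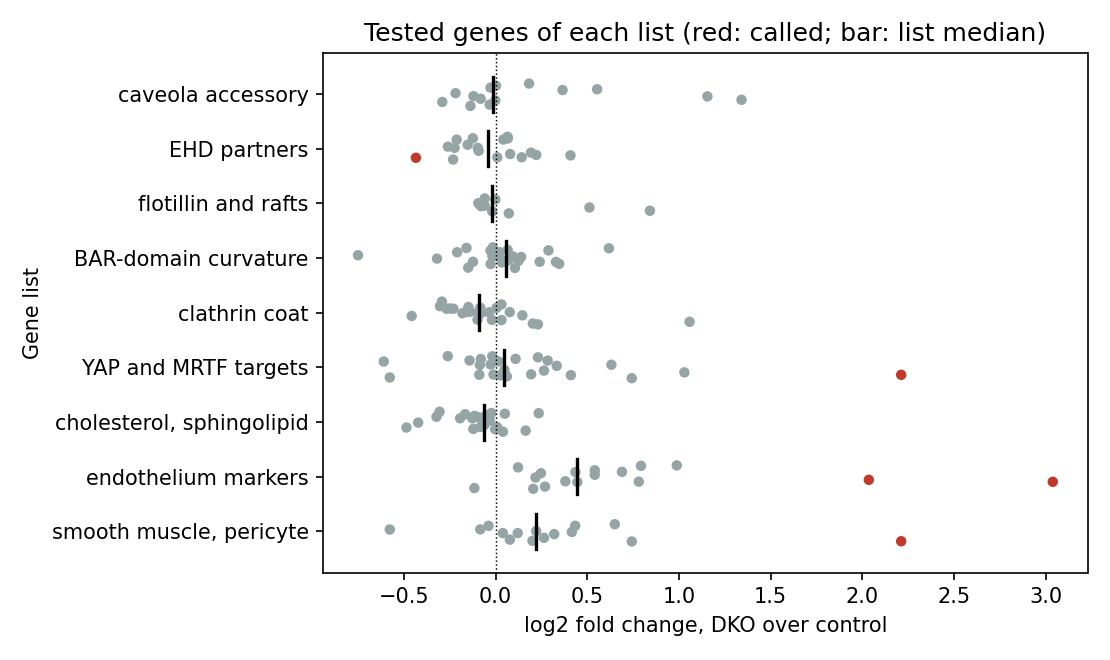
Log2 fold change of each tested gene in 9 lists, DKO over control, with called genes in red and a bar at each list's median. The medians of the caveola accessory and EHD partner lists lie near 0, and that of the endothelium markers lies at 0.45.

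Of 17 tested markers of endothelium, a cell type rich in caveolae, 2 rose in DKO libraries, Tie1 and Cd34, 0 fell and the others were not called. Of all tested genes, 2.19% rose. The summed level of the markers was 101, 118 and 94.9 CPM in DKO replicates 1, 2 and 3 against 61.2, 47.2 and 50.4 CPM in control replicates 1 to 3. A positive log2 fold change was found for 16 markers, with a median of 0.45, and 6 had all DKO values above all control values, as had 14.5% of all tested genes. Tie1 encodes an orphan receptor of the angiopoietin system (log2 fold change 3.04 with SE 0.203; edgeR adjusted p = 0.000503), and Cd34 a sialomucin also present on other progenitor cells (2.03, SE 0.202; adjusted p = 0.00272). Without Cd34 and Tie1, a split made after the values were seen, the sum was 47.7, 56.8 and 53.2 CPM in DKO against 46.7, 37.3 and 39.8 CPM in control replicates 1 to 3. The defining genes Pecam1 and Cdh5 had 6.49 ± 0.929 and 3.24 ± 1.43 CPM in DKO and 3.71 ± 1.02 and 2.38 ± 0.693 CPM in the controls (SD; n = 3 per group), and neither was called (edgeR adjusted p = 0.111 and 0.502); both are named after their values were seen. In the list, 0 of 18 markers were without counts. The cells had been sorted on TdTomato switched on by Wnt1-cre, a neural crest label. The part of endothelial cells in the level of Cavin2 was not tested.

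Markers of smooth muscle and pericytes summed to between 764 and 809 CPM in DKO and between 767 and 815 CPM in the controls. Of these 15 genes, 12 had a positive log2 fold change, with a median of 0.22. All DKO values lay above all control values for 4 and below them for 0, against 14.5% and 12.7% of all tested genes. The smooth muscle actin gene Actg2 rose (log2 fold change 2.21 with SE 0.462, edgeR adjusted p = 0.0448), 1 of 15 beside 2.19% of all tested genes. That call ended against a 1.5-fold change (adjusted p = 0.149), with limma-voom (0.097) and with the replicate block (0.0522). It also ended with at least 1 CPM in 3 libraries (0.0518) and without any 1 library other than DKO replicate 3. Markers of skeletal and cardiac muscle summed to between 227 and 270.3 CPM in DKO and between 246 and 261 CPM in the controls. Pax3, Pax7 and Isl1 were the most abundant, with means of 105, 69.3 and 51.8 CPM over the 6 libraries, and are named after their values were seen. A positive log2 fold change was found for 10 of the 14 tested genes, with a median of 0.47. All DKO values lay above all control values for 3 and below them for 1, against 14.5% and 12.7% of all tested genes. Beside 2.19% of all tested genes, 1 of 14 tested genes in this list rose, the myosin light chain gene Myl1. It passed the filter on low counts only through the DKO libraries, at 0.865 ± 0.111 CPM in DKO and 0.0676 ± 0.0223 CPM in the controls (SD; n = 3 per group). The summed epithelial markers overlapped between groups, between 33.0 and 50.4 CPM in DKO and between 36.9 and 41.5 CPM in the controls. Markers of blood and immune cells ranged most within a group in proportion to their level. They summed to 21.4, 59.6 and 329.6 CPM in DKO replicates 1, 2 and 3 and to between 109 and 187 CPM in the controls. DKO replicate 3 also had the lowest sum of neural crest mesenchyme markers, 2239 CPM, against 2667 and 2700.1 CPM in DKO replicates 1 and 2.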

How the data were processed

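RNA-seq counts of 6 libraries (3 DKO, 3 control) were analysed. The authors deposited whole-number counts per gene symbol without normalization, and their processing notes name STAR 2.7.10a, Trim Galore, Picard and the mm10 build (per the submitters' processing notes). For the counter, the strand setting and the annotation, the choice is not given in the sources used here; overlapping genes could share reads. Total counts per library limit the precision of scarce genes.

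Genes were filtered by filterByExpr (minimum count 10, minimum total 15), which left 14555 of 21006 symbols, and scaled by TMM. Groups were compared with edgeR 4.0.16 in R 4.3.3 (glmQLFit with robust estimation, glmQLFTest), 2-sided, with group as the only term and Benjamini-Hochberg adjustment over all tested genes. Calls required an adjusted p below 0.05, and only called genes are said to have risen or fallen. The standard error is the size of the log2 fold change divided by the root of F, and 95% intervals use the moderated degrees of freedom. The fit was tested on simulated data. Coordinates and exon lengths (union of annotated exons) are from GENCODE M21 on mm10, and start regions from RefSeq, which matched 8 of 10 members.

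The members, 15 gene lists and tests were chosen with earlier results of these data known. Named genes are the members, Ehmt1 and Ehmt2, neighbours of Ehd2 within 250 kb, the 5 genes most like Ehd2, and up to 3 called genes per list or, with none called, the 2 most abundant, of which 1 is not reported here. Further genes, marked in the text as named after their values were seen, lie outside this rule. No set test was run. Alternatives were RLE factors, library-size scaling, DESeq2 1.42.0, limma-voom (limma 3.58.1), a 1.5-fold threshold, other low-count filters, a replicate block and leaving out each library.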

Additional observations from a re-analysis of the deposited data

How the results depend on the processing

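The log2 fold change of Ehd2 was negative under all 14 alternatives, between -1.14 and -1.02. The last value, with library-size scaling only, moved by more than the spread between replicates; that scaling moved the median of all genes from -0.01 to 0.07. Genes called higher and lower numbered 319 and 119. They numbered 104 and 18 against a 1.5-fold change, 624 and 482 with the DESeq2 Wald test and 80 lower with library-size scaling only (83.9% of calls higher, against 72.8%), and 110 to 597 higher and 21 to 509 lower without 1 library (131 calls without DKO replicate 1, 1106 without DKO replicate 3). Deviations of same-numbered libraries from their group means correlated at r = 0.07, -0.05 and 0.31 for replicates 1 to 3. DKO replicate 2 correlated best with control replicate 1 (0.42), and DKO replicate 3 with control replicate 3. With 3 libraries per group, these values cannot decide whether the numbers pair the libraries. With a replicate block there were 423 higher and 196 lower genes. The causes were not tested, except that a threshold fold calls fewer genes by construction.

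Called members other than Ehd2 numbered 1, with 0 against a 1.5-fold change and 0 to 2 without 1 library. Called caveola accessory and EHD partner genes numbered 1, with 0 against a 1.5-fold change, 2 with DESeq2 and 0 to 1 without 1 library. Called genes in the other membrane and pathway lists numbered 1, with 0 against a 1.5-fold change, with at least 1 CPM in 3 libraries and with limma-voom, 2 with library-size scaling only and with the replicate block, 11 with DESeq2 and 0 to 10 without 1 library.

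Some genes changed sign without being called. With library-size scaling only, Ehd1 went to 0.0445, Pacsin2 to 0.0788, Bicra to 0.0607, Erlin2 to 0.021, Krt18 to 0.0544 and Stoml2 to 0.0628. Pacsin2 went to 0.0146 with at least 1 CPM in 3 libraries and Krt18 to 0.0247 with limma-voom. Abl1 went to -0.0025 without the low-count filter, -0.0009 with the replicate block and -0.0005 with limma-voom, and Nop53 to -0.0006 without the filter. Without 1 library the ranges were -0.0955 to 0.011 (Ehd1), -0.0673 to 0.171 (Ehd4), -0.38 to 0.30 (Cavin1), -0.0386 to 0.055 (Pacsin2), -0.0483 to 0.0728 (Abl1), -0.119 to 0.0481 (Bicra), -2.36 to 0.188 (Hba-x), -1.75 to 0.339 (Hbb-y), -0.175 to 0.0941 (Krt18), -0.001 to 0.056 (Napa), -0.0413 to 0.052 (Nop53), -0.0912 to 0.131 (Selenow) and -0.0759 to 0.0315 (Stoml2). The lowest values of Hba-x and Hbb-y, -2.36 and -1.75, came without DKO replicate 3. Cav1, Cav2 and Cavin1 had 16 to 189 counts per library.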

Other observations

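Other membrane coats were mostly not called. Of 26 clathrin coat genes, 0 were called by edgeR (11 at an unadjusted p below 0.05), the median log2 fold change was -0.09, and 12 had all DKO values below all control values, as had 12.7% of all tested genes. An unadjusted p below 0.05 was reached by 20.9% of all tested genes. The clathrin heavy chain gene Cltc measured 371, 346 and 390 CPM in DKO and 422, 441 and 493 CPM in control replicates 1 to 3 (log2 fold change -0.29; edgeR adjusted p = 0.117), and Ap2b1, an adaptor subunit gene, had -0.14 (adjusted p = 0.319). DESeq2 called Cltc (adjusted p = 0.0251). Of 27 tested BAR-domain genes, 0 were called by edgeR (5 at an unadjusted p below 0.05), with a median of 0.05; the most abundant, Fnbp1l and Sh3glb1, had -0.21 and -0.32 (adjusted p = 0.162 and 0.0808), and Sh3glb1 was called by DESeq2 (adjusted p = 0.0179) and by edgeR without DKO replicate 3 (0.0289). Of 9 tested flotillin and raft genes, 0 were called (1 at an unadjusted p below 0.05), with Stoml2 at -0.02 and Erlin2 at -0.06.

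Of 25 genes of cholesterol and sphingolipid metabolism, 0 were called by edgeR (2 at an unadjusted p below 0.05), with a median of -0.06, Hmgcs1 at -0.31 (adjusted p = 0.132; 0.0399 with DESeq2) and Srebf2 at -0.12 (adjusted p = 0.402). Of 25 tested YAP and MRTF target genes, 1 rose, Actg2, beside 2.19% of all tested genes, and the median was 0.05. In this list 7 genes had an unadjusted p below 0.05, as had 20.9% of all tested genes. All DKO values lay above all control values for 6 genes and below them for 2, against 14.5% and 12.7% of all tested genes. Among markers of other cells, the neuronal list had 1 lower gene of 15, Pou4f1 (-0.45, edgeR adjusted p = 0.0306), beside 0.818% of all tested genes. A positive log2 fold change was found for 1 of these 15, with a median of -0.34. The list of glia and melanocytes had 1 higher gene of 11, Tyr (1.70, edgeR adjusted p = 0.0392), beside 2.19% of all tested genes, with a median of -0.13. Both calls ended without any 1 library other than DKO replicate 3. The epithelial gene Krt18 had -0.03, and the embryonic globin genes Hbb-y and Hba-x -0.16 and -0.33.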
